A study of Mus musculus with 9 samples.

Results

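The contacts of the mouse Dbp locus with chromosome 15 were described from all probes that the arrays place on that chromosome, 15643 of the 384942 probes on the array. Dbp itself lies on chromosome 7, so every value below is a contact between 2 chromosomes. A probe was called high when its log2 ratio lay above the 95th percentile of the same array over the 365587 probes off chromosome 7. These high probes were then counted along the chromosome in windows of 1 Mb and 250 kb, on both sides of its midpoint, and across times, cell lines and genotypes.

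Dbp encodes a PAR bZIP transcription factor and is itself transcribed under the circadian clock. It is driven by the heterodimer of CLOCK and BMAL1 at E-boxes in the gene, and Bmal1 is a core clock gene without which cells keep no circadian rhythm. In 4C (chromosome conformation capture-on-chip), DNA that was ligated to a chosen locus, the viewpoint, is amplified and read on an array. Most ligation partners of a locus lie on its own chromosome. Partners on other chromosomes are rarer and are read as regions in which many neighbouring probes are raised. Mouse chromosomes have the centromere at one end, and the proximal side of chromosome 15 is the side next to it. The distal part of chromosome 15 is known as gene-rich and carries the Hoxc homeobox cluster and the type II keratin genes, while the middle of the chromosome holds long stretches with few genes.

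The cells were mouse embryonic fibroblasts of C57BL/6 background, taken from embryos at day 13, synchronized with dexamethasone for 2 h and harvested at a stated circadian time (CT, in h). Wild-type (WT) line 1 gave 1 array each at CT22, CT26, CT30, CT34 and CT46. A Bmal1-/- line gave 1 array each at CT22 and CT34, and the independent WT line 2 gave 1 array each at CT22 and CT34. Per the labels, line 1 and the Bmal1-/- cells descend from one mating scheme, and line 2 came from another cross, so line and cross cannot be told apart. The labels give the serum of line 1 and the Bmal1-/- cells in 2 ways, as NCS with heat-inactivated FBS or as heat-inactivated FBS, and that of line 2 as FBS. The Bmal1-/- genotype was present in 1 line only, so genotype and line cannot be told apart either. The names of the line 2 arrays carry the hours 24 and 36 where the labels give CT22 and CT34. The labels do not say whether arrays of one line came from separate cultures, so the p-values below measure the spread between these arrays, which may be technical.

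The arrays differed in range. The standard deviation over all probes was 0.391 and 0.411 (log2) on the line 2 arrays and between 0.825 and 1.10 on the 7 others. The 95th percentile was 0.51 and 0.52 in line 2 and between 1.64 and 2.73 elsewhere. The high-probe measure sets each array against its own percentile, but how far the narrow range of line 2 bears on its values was not tested. The probes on chromosome 15 are 59 nt long with a median of 5003 bp between neighbouring starts. They span positions 3107414 to 103492478. A 1 Mb window held a median of 154 probes, and a 250 kb window 39. Coordinates are those of the files. No source used here gives the genome build, so no gene was assigned to a window.

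Chromosome 15 held more high probes than the genome off chromosome 7 on every array. In line 1 the share was 7.04% at CT22, 6.85% at CT26, 7.16% at CT30, 7.00% at CT34 and 6.81% at CT46, a mean of 6.97% ± 0.142 (SD, n = 5 times). The Bmal1-/- line gave 6.76% at CT22 and 6.96% at CT34, within or just below the range of line 1. Line 2 gave 5.36% and 5.33%, below all other arrays. Over the remaining probes off chromosome 7 it lay between 4.77% and 4.92%. The exact 95% binomial interval (Clopper-Pearson) for the line 1 CT22 array was 6.65% to 7.46% and covers counting error only. Among 19 chromosomes chromosome 15 ranked 3rd on 8 of the 9 arrays. On the line 1 CT26 array chromosome 17 stood above it, with 6.88%.

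The excess lay on the distal side of the chromosome. The midpoint of the probed span is at position 53299946, with 7852 probes before it and 7791 after it. In line 1 the distal side held 9.29%, 9.52%, 8.98%, 8.84% and 8.56% high probes at CT22, CT26, CT30, CT34 and CT46. The proximal side held 4.81%, 4.20%, 5.35%, 5.17% and 5.08% at the same times. The sides did not overlap at any time, and the proximal side stood at about the level of the rest of the genome. In the Bmal1-/- line the distal side held 8.14% and 8.78% and the proximal side 5.40% and 5.16%. In line 2 the distal side held 6.15% and 6.31% and the proximal side 4.58% and 4.34%.

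**Figure D1:**
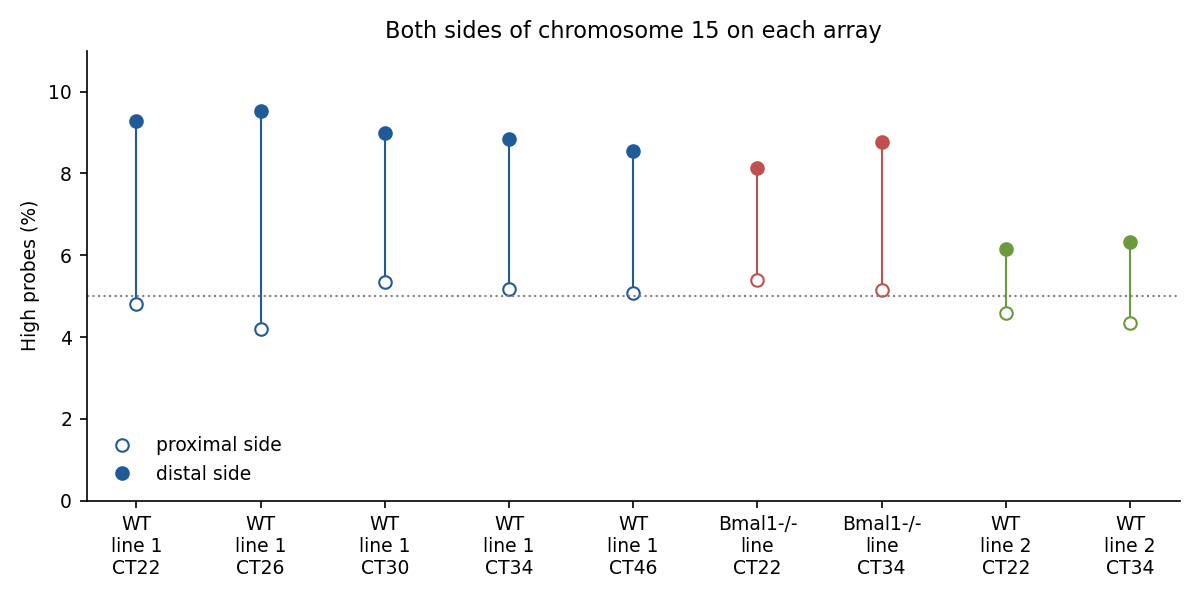
Share of high probes (percent, vertical axis) in the proximal side (open points) and the distal side (filled points) of chromosome 15 on each of the 9 arrays (horizontal axis). The dotted line marks 5%, the share set by the 95th percentile over probes off chromosome 7. The distal side is the higher one on all 9 arrays, from 9.52% against 4.20% in line 1 at CT26 to 6.15% against 4.58% in line 2 at CT22.

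With the 3 lines weighted equally, the distal side exceeded the proximal side by 3.02 percentage points (SE 0.195), with an adjusted p of 1.47e-08 from limma fitted across 19 chromosomes. A difference between sides was common in this test, since 84.2% of chromosomes passed it. The SE of 0.195 rests on the spread between arrays within a line, not between lines. With line as a replicate block (limma, duplicateCorrelation) the difference was 3.08 (SE 0.488, adjusted p = 9.46e-05). Chromosome 15 ranked high by size, with chromosome 11 close to it. Its distal minus proximal difference was the first of 19 in line 1 (4.12 percentage points) and in line 2 (1.77) and the second in the Bmal1-/- line (3.18). Chromosome 11 came next in line 1 with 4.06 and stood first in the Bmal1-/- line with 3.22. In line 2 chromosomes 8 and 11 followed with 1.59 and 1.57. With the lines weighted equally chromosome 11 gave 2.95 (SE 0.158). Chromosome 17 showed the opposite slope in line 1 with -4.06. The chromosome 15 difference remained 2.75 percentage points (SE 0.169) with the outer 5 Mb at both ends left out. On the scale of the mean log2 ratio it was 0.15 (SE 0.0128).

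**Figure D2:**
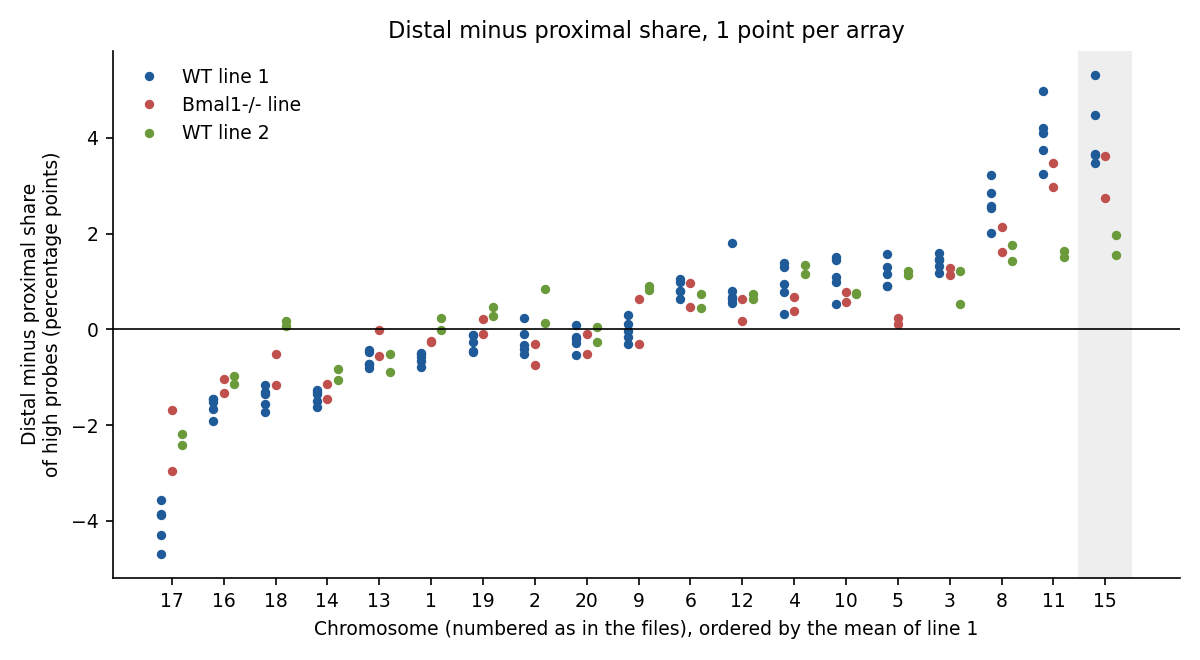
Distal minus proximal share of high probes (percentage points, vertical axis) for 19 chromosomes (horizontal axis, ordered by the mean of line 1), with 1 point per array coloured by line. Chromosome 15, shaded, ends the order at the upper end with 3.48 to 5.32 in line 1, 2.74 and 3.62 in the Bmal1-/- line and 1.56 and 1.97 in line 2.

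The slope differed between the wild-type lines. Line 2 minus line 1 was -2.35 percentage points (SE 0.447, adjusted p = 0.00132, limma across 19 chromosomes, of which 52.6% passed). The line 2 arrays, at 1.56 and 1.97, lay below all 5 line 1 arrays, whose lowest was 3.48. With a high probe defined by the 99th percentile the difference between the lines turned to 0.0959 (adjusted p = 0.835). For the Bmal1-/- line minus line 1 the difference was -0.938 (SE 0.447, adjusted p = 0.163), which did not pass, where 10.5% of chromosomes did. It was -0.496 without the Bmal1-/- CT22 array and -1.38 without the Bmal1-/- CT34 array. With the 90th percentile it was -2.004 (adjusted p = 0.00180), which passed.

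Along the chromosome the high probes gathered in a few regions. A contact window was called on an array when its number of high probes exceeded the genome share off chromosome 7 (one-sided binomial test, adjusted p under 0.05 per array, windows of at least 20 probes). Such a call describes 1 array. Of 101 windows of 1 Mb on chromosome 15, 12 (11.9%) were called at all 5 times of line 1, where 5.09% of the 2399 windows off chromosome 7 were. Of these 12, 11 lay on the distal side. They formed 6 separate regions, and 66 of the 101 windows were called on no array, against 79.6% off chromosome 7. These regions were chosen by line 1 alone. That choice favours high line 1 values, so values of the other lines set beside line 1 in them are descriptions.

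**Figure D3:**
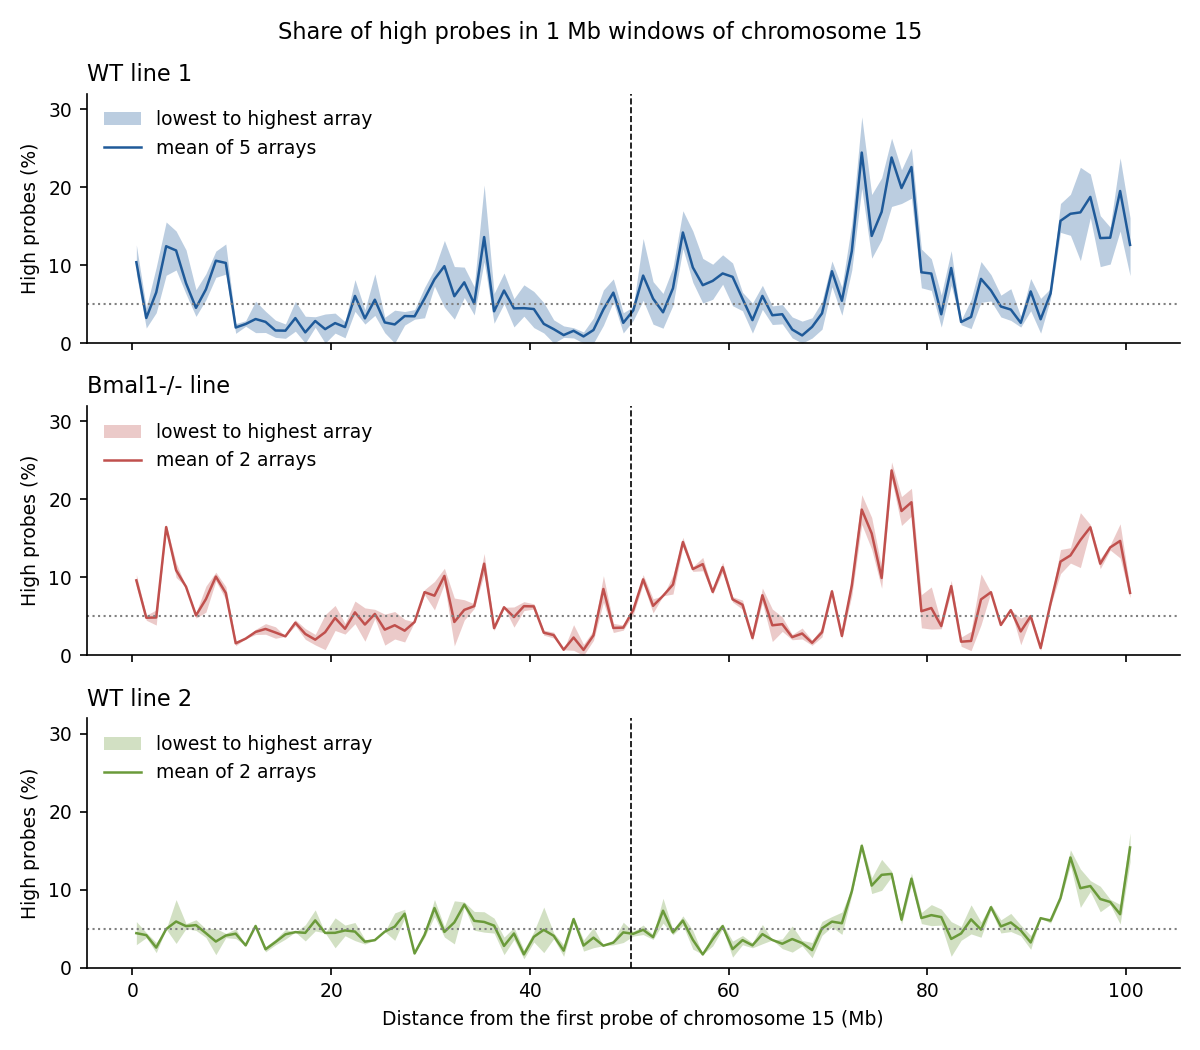
Share of high probes (percent, vertical axis) in 1 Mb windows against distance from the first probe of chromosome 15 (Mb, horizontal axis), for line 1, the Bmal1-/- line and line 2. Lines are means over arrays, bands run from the lowest to the highest array, the dotted line marks 5% and the dashed line the midpoint. All 3 lines stand above 5% in the stretch where the line 1 mean reaches 24.4% and again near the distal end. The peaks near the proximal end and just past the midpoint appear in line 1 and the Bmal1-/- line.

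The longest region ran over 6 Mb, from 76000001 to 82000000. It held 22.1%, 21.8%, 20.2%, 18.7% and 17.5% high probes in line 1 at CT22, CT26, CT30, CT34 and CT46, with 868 probes. The Bmal1-/- line gave 17.2% and 18.0% there, the first just below the lowest line 1 array and the second within the line 1 range, and line 2 gave 10.3% and 11.98%, below it. Its first window, 76000001 to 77000000, had the highest share of the chromosome, with 24.4% ± 4.28 (SD, n = 5 times) in line 1. That window gave 20.6% and 16.8% in the Bmal1-/- line and 15.3% and 16.0% in line 2. The line 2 arrays lay below all others in it. The windows from 79000001 and from 81000001 followed with 23.8% ± 3.56 and 22.6% ± 2.79 in line 1, and the window from 80000001 with 19.9% ± 1.92.

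The next regions lay near the distal end. The region from 96000001 to 98000000 held 14.3%, 16.6%, 15.3%, 16.6% and 17.8% in line 1 at the 5 times, 12.1% and 12.7% in the Bmal1-/- line and 10.8% and 12.1% in line 2. In its second window, from 97000001, the values of the 3 lines overlapped, with 16.6% ± 2.30 in line 1, 12.8% ± 1.40 in the Bmal1-/- line and 14.1% ± 1.40 in line 2 (SD, n = 5, 2 and 2). The window from 99000001 held 18.7% ± 2.06 in line 1, 16.4% ± 0.495 in the Bmal1-/- line and 10.5% ± 0.989 in line 2. The window from 102000001 was the most variable of these over time, with 23.8%, 21.9%, 21.2%, 14.4% and 16.2% in line 1. It gave 12.5% and 16.9% in the Bmal1-/- line and 5.63% and 8.12% in line 2. The last window of the chromosome, from 103000001 with 81 probes, was higher in line 2 (13.6% and 17.3%) than in the Bmal1-/- line (7.41% and 8.64%), and the line 1 arrays, from 8.64% to 16.0%, overlapped both. This window was chosen after its values were seen.

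Only 1 region of the proximal side and 1 just past the midpoint were called at all 5 times of line 1. The window from 38000001 held 13.1%, 11.1%, 20.3%, 10.5% and 13.1% in line 1, 10.5% and 13.1% in the Bmal1-/- line and 4.58% and 7.19% in line 2. The window from 58000001 held 14.2% ± 2.08 in line 1, 14.5% ± 0.857 in the Bmal1-/- line and 6.06% ± 0.857 in line 2. In both windows the line 2 arrays lay below every other array, and the Bmal1-/- arrays overlapped the range of line 1.

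**Figure D4:**
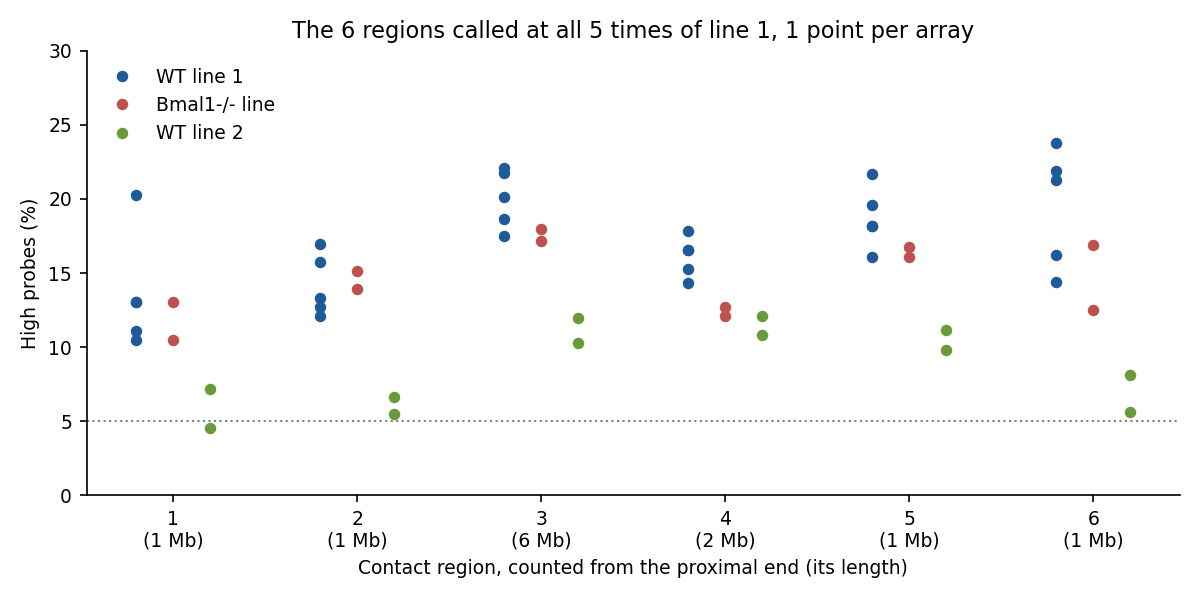
Share of high probes (percent, vertical axis) in the 6 regions called at all 5 times of line 1 (horizontal axis, counted from the proximal end), with 1 point per array coloured by line. The dotted line marks 5%. Line 2 lies below every line 1 array in all 6 regions, and the Bmal1-/- arrays overlap line 1 in 5 of them, the exception being the fourth region, where they stand at 12.1% and 12.7%. The regions were chosen by calls on line 1, which favours high line 1 values in them.

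The calls were shared by the Bmal1-/- line more than by line 2. Of the 12 windows, 10 were called on both Bmal1-/- arrays. The matching overlap off chromosome 7 is not given here, so this count has no background beside it. On chromosome 15 as a whole 17 windows (16.8%) were called on both, where 5.46% of windows off chromosome 7 were. In line 2, 2 windows were called on both arrays, against 0.292% off chromosome 7. These were the windows from 76000001 and 97000001, which were called on all 9 arrays, where 0.25% of windows off chromosome 7 were. Line 2 also gave fewer calls everywhere, 13 and 40 of 2399 windows per array, against 176 to 297 on the other arrays.

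In windows of 250 kb, 5 of 402 (1.24%) were called at all 5 times of line 1, where 0.295% of 9498 windows off chromosome 7 were. They too were chosen by line 1 alone and began at 79000001, 79500001, 80500001, 100000001 and 102000001. The window from 79500001 to 79750000 held 28.7% ± 5.58 in line 1, 28.3% ± 2.36 in the Bmal1-/- line and 21.7% ± 2.36 in line 2. Its Bmal1-/- arrays lay within the range of line 1, while the higher line 2 array tied with the lowest line 1 arrays at 23.3% and both line 2 arrays lay below the Bmal1-/- arrays. The window from 100000001 to 100250000 held 30.3% ± 4.93 in line 1, 23.1% ± 3.63 in the Bmal1-/- line and 7.69% on both line 2 arrays. There the higher Bmal1-/- array tied with the lowest line 1 array at 25.6%, and line 2 lay below all other arrays. By the mean of line 1 the highest was the window from 76000001 to 76250000, with 35.8% ± 9.68. It held 33 probes, so a single probe moves its share by several percentage points. The CT22, CT26 and CT30 arrays of line 1 gave 42.4% there and the Bmal1-/- arrays 15.2% and 21.2%.

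Long stretches were poor in contacts. In 5 runs of at least 3 Mb every line 1 array stayed under 5% in each window. They covered 16000001 to 19000000, 20000001 to 25000000, 28000001 to 32000000, 45000001 to 50000000 and 67000001 to 72000000. The emptiest ran from 45000001 to 50000000, where line 1 held 1.39% ± 0.407, the Bmal1-/- line 1.81% and line 2 3.91% on both arrays. The window from 48000001 was the lowest of the chromosome, with 0.857% ± 0.598 in line 1, 1.43% and 0% in the Bmal1-/- line and 2.14% and 3.57% in line 2. By the mean, line 2 lay above line 1 in all these runs and below it in the contact regions. Both sets were chosen by their line 1 values, and how far that choice makes this contrast was not tested.

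Few single probes were high on every array. Of the 15643 probes, 82 (0.524%) were high at all 5 times of line 1, against 0.245% of all probes off chromosome 7, and 58 (0.371%) were high on all 7 arrays of line 1 and the Bmal1-/- line, against 0.199%. Only 6 (0.0384%) were high on all 9 arrays, where 0.00903% of probes off chromosome 7 were. They were 6 of the 33 such probes off chromosome 7, with 3 on each side. The probe starting at 76060639 gave 3.39, 3.59, 2.99, 4.5 and 4.14 (log2) in line 1, 4.08 and 4.57 in the Bmal1-/- line and 3.42 and 3.63 in line 2. The line 2 arrays reached the level of the others at this probe, in spite of their narrow range. The other probes started at 6930348, 12045946, 51615987, 98499851 and 103081729. The probe at 51615987 was the one nearest the threshold, with 0.66 and 0.75 in line 2. The nearest probes beside these 6 were high on 0 to 7 arrays. For the probe at 76060639 the neighbours on its 2 sides, 6575 and 10866 bp away, were high on 1 and 0 arrays.

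High probes lay beside each other more often than the share of high probes alone. On the line 1 arrays between 10.9% and 14.1% of the high probes of chromosome 15 were followed by another high probe, where 6.81% to 7.16% of all its probes were high. In line 2 this was 5.60% and 6.60%, close to its shares of 5.36% and 5.33%. The Bmal1-/- arrays gave 8.98% and 10.7%. Off chromosome 7 the same measure was 8.12% to 9.85% in line 1, 6.81% and 8.43% in the Bmal1-/- line and 5.50% and 5.68% in line 2. The number of probes per window had little relation to the share in line 1 (r = -0.16 over 101 windows) and in the Bmal1-/- line (r = -0.062), and a negative one in line 2 (r = -0.45). These correlations are descriptions across windows, which share the same arrays.

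The difference between the wild-type lines, a comparison added after the values were seen, was fitted with limma over the 5 line 1 and 2 line 2 arrays. Of 101 windows, 25 passed on chromosome 15, where 22.3% of 2536 windows passed in all. Line 2 was lower in 22 of the 25, which is 21.8% of the 101 windows, against 12.9% of all windows, and 15 of these 22 lay on the distal side. The window from 80000001 differed most, with 22.2%, 21.6%, 18.5%, 19.1% and 17.9% in line 1 and 5.56% and 6.79% in line 2 (difference -13.7 percentage points, SE 1.33, adjusted p = 0.000128). The groups did not overlap there. A stretch near the proximal end went the same way, with the windows from 6000001 and 11000001 at 12.4% ± 2.64 and 10.6% ± 1.51 in line 1, 16.5% ± 0.439 and 10.1% ± 0.795 in the Bmal1-/- line, and 4.97% on both arrays and 3.37% ± 2.38 in line 2. The 3 windows in which line 2 was higher, from 21000001, 30000001 and 47000001, were poor in contacts in line 1, at 2.84%, 3.47% and 1.58%. The count fell on chromosome 15 and over all windows when either line 2 array was left out, which leaves 1 in that group. The median difference on chromosome 15, -0.51 percentage points with both, was -1.14 without the line 2 CT22 array and -0.24 without the line 2 CT34 array. The count fell to 0, over all windows too, when only CT22 and CT34 of both lines were used with time as a term. In that last fit 25 windows had an unadjusted p under 0.05 (limma), 24.8% of the 101 against 23.7% of all windows. Without any model, 29 windows were lower on both line 2 arrays than on all 5 line 1 arrays, where 15.4% of windows off chromosome 7 were, and 13 were higher, where 19.5% were.

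In 10 Mb bins, 8 of 11 differed between the wild-type lines, where 53.6% of 250 bins off chromosome 7 did. The last bin, from 100000001, fell from 15.1% ± 1.81 in line 1 to 9.13% ± 0.391 in line 2 (difference -6.00, SE 0.842, adjusted p = 3.998e-05). The first bin fell from 8.11% ± 0.737 to 4.72% ± 0.0661 (difference -3.39, SE 0.480, adjusted p = 3.998e-05). The bin from 20000001, which is poor in contacts, was the only bin of chromosome 15 that passed with line 2 higher (4.55% against 3.14%, difference 1.41, SE 0.441, adjusted p = 0.0140). With CT22 and CT34 alone no bin passed, and 6 of 11 had an unadjusted p under 0.05 (limma), where 45.2% of 250 bins did.

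**Figure D5:**
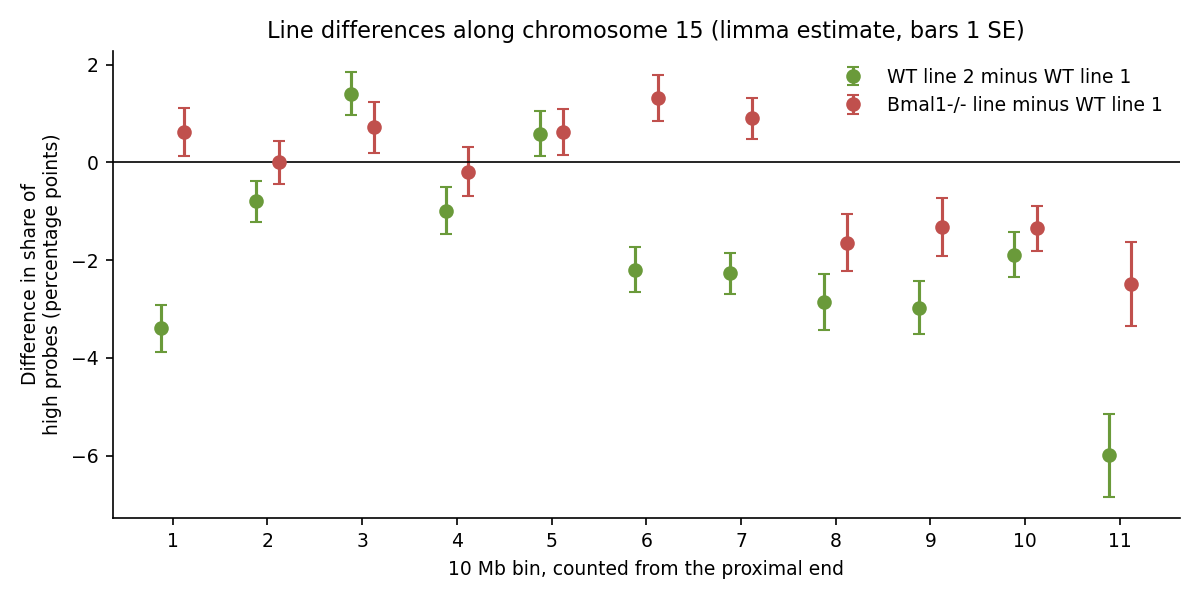
Difference in the share of high probes (percentage points, vertical axis) in the 11 bins of 10 Mb counted from the proximal end (horizontal axis), for line 2 minus line 1 and for the Bmal1-/- line minus line 1. Points are limma estimates and bars are 1 SE. Line 2 is lowest against line 1 in bin 11 (-6.00) and bin 1 (-3.39), and the Bmal1-/- differences run from 1.31 in bin 6 to -2.49 in bin 11, none of which passed.

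The profile of the Bmal1-/- line lay close to that of line 1. Its window means correlated with those of line 1 at a median r of 0.90 over 101 windows of 1 Mb (10 pairs of arrays), where pairs of line 1 arrays reached 0.94 and pairs of line 1 and line 2 arrays 0.75. Off chromosomes 7 and 15 the same medians were 0.88, 0.92 and 0.69, so this order was not particular to chromosome 15. These r values describe arrays that share a probe set and have no p. In 10 Mb bins none of 11 differed between the Bmal1-/- line and line 1 (limma, adjusted p under 0.05), where 1.2% of bins off chromosome 7 did, and 6 of 11 had an unadjusted p under 0.05, where 20% of bins did. The last 4 bins gave lower shares in the Bmal1-/- line, with differences from -1.32 (SE 0.596, adjusted p = 0.229) to -2.49 (SE 0.863, adjusted p = 0.144). The bin from 50000001 gave 8.01% against 6.69% (difference 1.31, SE 0.471, adjusted p = 0.153). Without the line 1 CT34 array 2 bins passed, both lower in the Bmal1-/- line, where 5.6% of bins did. With mean log2 ratios divided by each array's SD, 7 bins passed, where 50.4% of bins did. In that fit all 11 were higher in the Bmal1-/- line, where 94% of bins were. The direction of these bins thus depends on the measure.

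In the comparison of Bmal1-/- with WT (2 and 4 arrays at CT22 and CT34, limma on window mean log2 ratios with time as a term), no window of 1 Mb passed on chromosome 15 or elsewhere (0% of 2536). At an unadjusted p under 0.05 there were 41 of 101 windows on chromosome 15, all higher in the Bmal1-/- line, where 24.8% of all windows were. This count was 19 without the line 2 CT22 array, where 8.40% of all windows were. It also fell, here and over all windows, without either Bmal1-/- array, which leaves 1 in that group. With all 6 arrays the median difference was 0.21 (log2) on chromosome 15 and 0.14 over all windows. Without the Bmal1-/- CT34 array these medians were 0.16 and 0.11, and without the Bmal1-/- CT22 array 0.26 and 0.18. The Bmal1-/- line was higher in 98 of 101 windows (97.0%), where it was higher in 95.8% of all windows. With quantile normalization the medians were 0.02 and -0.02, and 60 of 101 windows were higher, where 42.0% of all windows were. By share of high probes 55 of 101 were higher, where 48.7% of all windows were. The narrow range of line 2 enters the WT group here.

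The window with the smallest p, from 56000001, gave mean log2 ratios of 0.38 and 0.42 in the Bmal1-/- line, against -0.01 and 0.04 in line 1 and 0.02 and 0.03 in line 2 at CT22 and CT34 (difference 0.38, SE 0.0349, adjusted p = 0.193, limma). The groups did not overlap, also by share of high probes against line 1, at 7.64% on both Bmal1-/- arrays and 1.91% to 6.37% over the 5 line 1 times. Line 2 stood at 5.73% and 8.92% and overlapped the Bmal1-/- arrays. The windows from 50000001, 42000001, 90000001 and 43000001 followed, with differences from 0.23 to 0.40 and the same adjusted p. All 5 of these windows lay outside the 6 contact regions, which hold only 12 (11.9%) of the 101 windows. By share of high probes, 4 windows were higher on both Bmal1-/- arrays than on all 5 line 1 arrays, where 4.67% of windows off chromosome 7 were, and 4 were lower, where 3.5% were. Among the lower ones was the window from 78000001 in the longest contact region, with 8.61% and 11.3% in the Bmal1-/- line against 13.2% to 21.2% in line 1. Both counts are 3.96% of the 101 windows, near the background.

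Other fits of the same comparison made calls. With all 5 line 1 arrays as WT and no term for time 27 windows of chromosome 15 (26.7%) passed, where 9.46% of 2536 windows did. With the 7 WT arrays and a term for line 2, a fit added after the values were seen, 49 (48.5%) passed, where 25.6% did. With a trended and robust variance 29 (28.7%) passed, where 13.4% did. All windows called in these fits, on chromosome 15 and on every other chromosome, were higher in the Bmal1-/- line on the mean log2 scale. The direction was thus not particular to chromosome 15.

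No change with time was called. For WT CT34 against CT22 (2 arrays each, limma), 0% of 2536 windows passed. None of the 101 windows on chromosome 15 had an unadjusted p under 0.05, where 0% of all windows did, in a fit with no term for line. The 5 windows of smallest p, from 39000001, 44000001, 91000001, 35000001 and 94000001, had differences between -0.11 and 0.08 (log2, adjusted p = 1.00). With line as a replicate block 6 windows of chromosome 15 (5.94%) had an unadjusted p under 0.05, where 7.14% of all windows did. None of the 101 passed in that fit, where 14 of the 2536 (0.552%) did, 3 of them off chromosome 7 (limma). In line 1, 46 windows had a higher share of high probes at CT34 than at CT22 and 47 a lower one. In line 2 the counts were 45 and 44, and in the Bmal1-/- line 46 and 45. The largest difference between these times in line 1 was in the window from 98000001, 21.8% at CT22 and 10.6% at CT34. The Bmal1-/- line went from 18.3% to 11.3% there, and line 2 went the other way, from 7.75% to 12.7%. Across windows the changes from CT22 to CT34 in line 1 and line 2 correlated at r = -0.20 (mean log2, 101 windows), and those in line 1 and the Bmal1-/- line at r = 0.028. Those in line 2 and the Bmal1-/- line correlated at r = 0.31. Over 2298 windows on other chromosomes the same pairs gave 0.011, 0.043 and 0.11. These r values are descriptions across windows of the same arrays.

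Neither side of the chromosome was called different with time. The distal side differed by -0.141 percentage points between CT34 and CT22 (SE 1.46) and the proximal side by 0.0573 (SE 0.455), with an adjusted p of 1.00 for both (limma across 38 chromosome sides, of which 0% passed). That fit had no term for line. With line as a replicate block the estimates were the same, with an SE of 0.219 for both sides (limma, adjusted p = 0.910 distal and 0.958 proximal). For Bmal1-/- against WT the distal side differed by 0.809 percentage points (SE 1.11) and the proximal side by 0.551 (SE 0.339), with an adjusted p of 0.908 for both, and 0% of sides passed. With 1 array left out the distal difference ran from 0.191 without the line 2 CT22 array to 1.54 without the line 1 CT22 array, and was 0.211 without the line 2 CT34 array, 0.417 without the Bmal1-/- CT34 array and 1.29 without the line 1 CT34 array. With mean log2 ratios the distal side was 0.26 higher in the Bmal1-/- line (SE 0.0797, adjusted p = 0.0155). With line 1 as the only WT line it was -0.610 percentage points (SE 0.388, adjusted p = 0.568), the opposite direction.

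The genotype by time interaction was called in no window (0% of 2536, limma). No window of chromosome 15 had an unadjusted p under 0.05, where 0.434% of all windows did. The fit had no term for line, so the difference between the WT lines entered its residual spread. The largest estimate among the 5 windows of smallest p was 0.29 (SE 0.104, adjusted p = 0.994) in the window from 67000001. A rhythm of 24 h, fitted to the 7 WT arrays with line as a term, was also called in no window (0% of 2536, limma F test). On chromosome 15, 6 windows (5.94%) had an unadjusted p under 0.05, where 6.43% of all windows did. The one of smallest p, from 82000001, next to the longest contact region, had mean log2 ratios of 0.49, 0.27, 0.33, 0.52 and 0.44 in line 1 at CT22, CT26, CT30, CT34 and CT46 and 0.06 and 0.07 in line 2 (fitted amplitude 0.22, adjusted p = 0.669). The values were lowest at CT26 and CT30 in line 1.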

How the data were processed

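The authors deposited log2 ratios, Cy5 (4C DNA) over Cy3 (cut genomic DNA), 1 per probe and array, written by NimbleScan and shifted by a Tukey biweight mean per the file headers. The log base is that program's convention and is not written in the files. No source used here gives the background correction, the filters or the genome build. Each of the 9 arrays was centred on its median. Windows needed at least 20 probes (1 Mb), 10 probes (250 kb) or 500 probes (10 Mb and chromosome sides split at the midpoint of the probed span). The number of arrays limits the precision.

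Contact calls used a one-sided binomial test with Benjamini-Hochberg adjustment per array. Comparisons used limma 3.58.1 in R 4.3.3 (lmFit, eBayes, two-sided, Benjamini-Hochberg over all features), with window mean log2 ratios for time, genotype, interaction and rhythm and the share of high probes for sides, bins and lines. Features without variance in the shares were offset by limma. Calls and shares were computed in Python 3.11.15 with scipy 1.17.1, numpy 2.4.6 and pandas 2.3.3, and drawn with matplotlib 3.10.9. The fits and calls were also run on simulated data with independent noise. Those data held no line or range differences and no clustering of high probes, so such features were not covered.

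The windows named were the 10 called on most arrays, the 5 lowest in line 1, the 5 highest of 250 kb, the 5 of smallest p per comparison and the probes high on all 9 arrays. Others were chosen after their values were seen. The chromosome, the windows and the lists were chosen with earlier results of these data known.

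Same-numbered WT arrays come from the same line, so the numbers pair WT CT22 with WT CT34. The differences between line 2 and line 1 at CT22 and at CT34 correlated at r = 0.88 over 101 windows of chromosome 15 and 0.85 over 2298 on other chromosomes.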

Additional observations from a re-analysis of the deposited data

Results flagged for a closer look

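The distal minus proximal share of high probes on chromosome 15 differed between the wild-type lines by a test of the difference itself. Line 2 minus line 1 was -2.35 percentage points (limma across 19 chromosomes, adjusted p = 0.00132). Of the 19 chromosomes 52.6% passed, so this was not particular to chromosome 15. Among them were chromosome 11 with -2.48 and chromosome 17, whose slope in line 1 was -4.06, with 1.76. On chromosome 15 the distal minus proximal share was lower on 2 of 2 line 2 arrays than on all 5 line 1 arrays. Line, cross and the narrow range of the line 2 arrays cannot be told apart here.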

How the results depend on the processing

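The distal excess kept its direction and stayed past the threshold under every alternative run, between 2.87 and 3.17 percentage points when 1 array was left out, and was 4.12 in line 1 alone and 1.77 in line 2 alone. The chromosome share in line 1 was 12.8% with the 90th, 1.36% with the 99th and 5.04% with the 95th percentile over all probes. Windows called at all 5 line 1 times numbered 12 to 15 when 1 time was left out, 5 at 250 kb and 0 with the 99th percentile, where 1 window was called off chromosome 7. Bmal1-/- against WT gave 27 windows (all line 1 arrays), 29 (trend and robust) and 49 (term for line 2). Line 2 against line 1 gave 0 windows with CT22 and CT34 only, 39 divided by SD, 48 by mean log2 ratio and 6 to 25 with 1 array left out, the lowest without line 2 CT22. Over all 2536 windows 840 passed divided by SD and 1079 by mean log2 ratio, so such calls were common on other chromosomes too. In 10 Mb bins line 2 against line 1 gave 0 with CT22 and CT34 only. Bmal1-/- against line 1 gave 7 bins divided by SD, where 126 of 250 bins passed. With 1 line 1 array left out it gave 0 to 2, where 0 to 14 of 250 passed. The line 2 minus line 1 difference of the slope turned to 0.0959 with the 99th percentile.

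For CT34 against CT22 the distal side turned to 0.154 (99th percentile) and ran from -1.71 to 1.43 with 1 array left out. These fits had no term for line, so leaving out 1 array also changed the mix of lines. The proximal side turned to -0.217 (90th), -0.0764 (99th) and -0.01 (mean log2, -0.013), and ran from -0.357 to 0.471. For Bmal1-/- against WT the distal side was 0.26 by mean log2 ratio and -0.610 with the replicate block that keeps line 1 as the only WT line. The window from 90000001 turned to -1.54 by share of high probes, and the interaction in the window from 68000001 to -0.0050 by window median. The replicate block changed no other call on chromosome 15, and the interaction had no residual degrees of freedom under it. The cause of these changes was not tested. Signal over background cannot be computed from ratios.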
